A study of Arabidopsis thaliana with 18 samples.

Results

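The 7 nuclear genes ATPC1 (AT4G04640), PSAE-1 (AT4G28750), PSAN (AT5G64040), PSB27 (AT1G03600), PSBW (AT2G30570), PSBY (AT1G67740) and AT2G26500 encode proteins of the photosynthetic membrane complexes of Arabidopsis thaliana. PSB27 among them acts in the assembly and repair of photosystem II. All 7 were chosen by name, with earlier results of these data known. Each was read from the 1 probe set that the array annotation assigns to it and to no other gene, so 7 of 22746 probe sets, or 7 of 13350 genes with a probe set of their own, are described. All 7 passed the filter on low signals. The arrays came from aerial parts of 4-day-old dark-grown Col-0 seedlings. They were kept in the dark, or moved into white light (70 to 80 µmol m-2 s-1) for 0.5 h or 4 h. From each light condition polysome-bound RNA, which was recovered from a sucrose gradient and carries several ribosomes per transcript, was measured beside steady-state RNA, the total pool. The 6 groups were therefore dark, 0.5 h and 4 h polysome-bound RNA and dark, 0.5 h and 4 h steady-state RNA, each with 3 arrays that the labels call biological replicates. All seedlings were of the Col-0 accession, grown on agar medium, and carry no stated mutation or transgene.

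Photosystem II splits water and passes electrons through the cytochrome b6f complex and plastocyanin to photosystem I, which reduces ferredoxin. The proton gradient built on the way drives the chloroplast ATP synthase. Each complex is assembled from subunits encoded in the plastid and subunits encoded in the nucleus. Dark-grown cotyledons hold etioplasts without working photosystems, and light starts the building of thylakoid membranes.

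Array medians lay between 154 and 206, and the median correlation of an array with the other arrays between 0.82 and 0.929. The 6 arrays at 4 h had the lowest of these correlations. Of 14 marker genes for tissue and light state, the array annotation gave 4 a probe set of their own. The root hair expansin gene EXPA7 stayed between signals of 3.1 and 50.4 on all 18 arrays, below the filter. PORB, a protochlorophyllide oxidoreductase gene of etiolated tissue, averaged 3416 ± 1024 at 4 h and 11179 ± 275 in the dark in steady-state RNA, and the light-signalling gene HYH 1134 ± 216 at 4 h and 67.5 ± 12.6 in the dark (SD, n = 3 arrays). The guard cell gene FAMA was between 60.4 and 204. The part of these tissue and light markers in the results was not tested. In RNA from whole aerial parts, fewer cells of a type and less RNA per cell cannot be told apart, and equal scaling of all arrays leaves only relative changes visible. Signals are linear values of 1 probe set, and the level of one gene is not set against that of another.

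All 7 genes were higher after 4 h of light than in the dark, in polysome-bound RNA and in steady-state RNA. The comparison asked how far light raises these transcripts in the total pool and on ribosomes. In polysome RNA the rises ran from 1.49-fold for ATPC1, the ATP synthase gamma subunit, to 5.89-fold for AT2G26500, the cytochrome b6f subunit PetM, with a median log2 change of 1.89. In steady-state RNA they ran from 1.83-fold for AT2G26500 to 3.64-fold for the photosystem II gene PSBY, with a median of 1.36. The median over all tested probe sets was -0.094 in polysome RNA and -0.0067 in steady-state RNA. Of all probe sets, 15.6% were called higher in polysome RNA and 16.9% in steady-state RNA by limma (adjusted p under 0.05 over 15922 probe sets), against 7 of 7 of these genes in each. Because the genes were chosen with earlier results of these data known, this count describes them and is no test. ATPC2, the 1 other listed nuclear gene with a probe set of its own, was not called higher in either kind of RNA. For every gene the 6 arrays at 4 h all lay above the 12 dark and 0.5 h arrays, a separation that 9.58% of the tested probe sets showed. Against 0.5 h of light, all 7 genes were again higher at 4 h, by 1.54-fold to 4.08-fold in polysome RNA and 1.64-fold to 3.9-fold in steady-state RNA (background 14.6% and 16.4%). The comparisons at 4 h share their 4 h arrays within each kind of RNA.

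**Figure D1:**
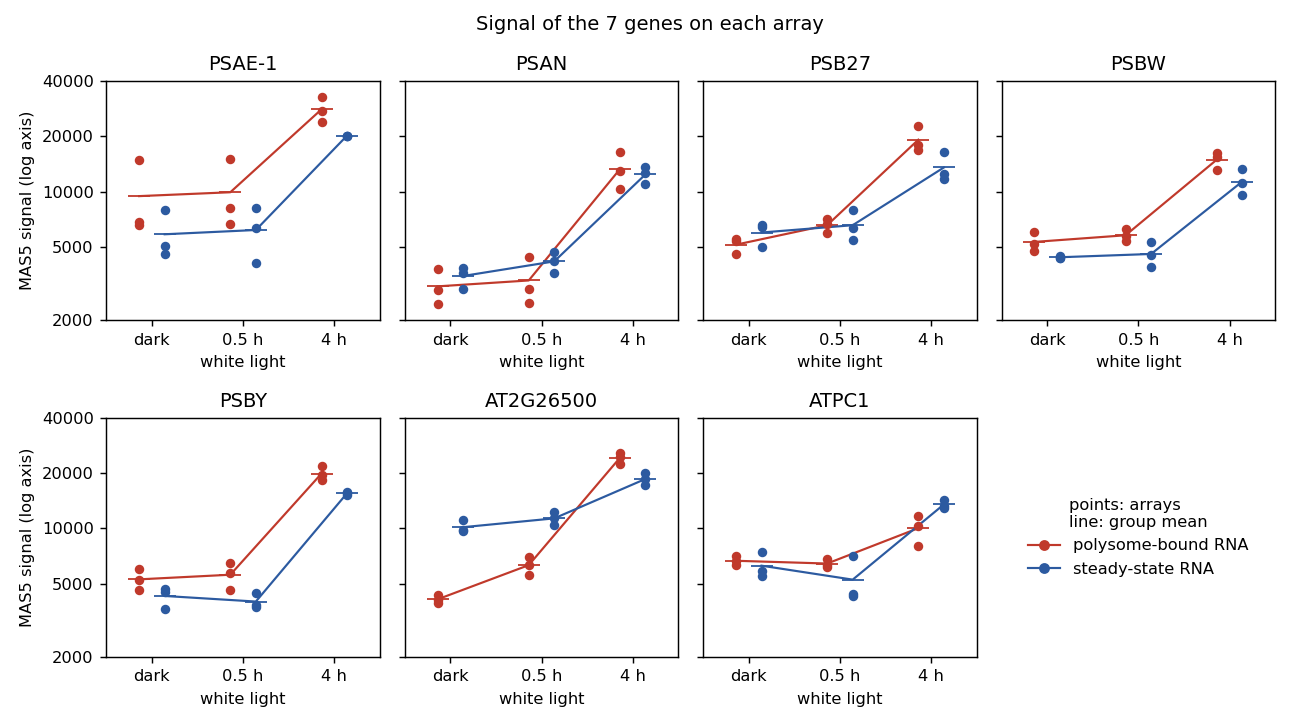
Signal of each gene on each of the 18 arrays (vertical log axis, MAS5 signal) in the dark and after 0.5 h and 4 h of white light (horizontal axis), for polysome-bound RNA (red, left) and steady-state RNA (blue, right); points are arrays and lines join the means of 3. All 7 genes are highest at 4 h, and only for AT2G26500 do the polysome signals lie below all steady-state signals both in the dark and at 0.5 h.

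PSAE-1 encodes PsaE, a subunit on the stromal side of photosystem I where ferredoxin docks. PSAE-1 signals on the polysome arrays were 14925, 6598 and 6847 in the dark, 15012, 8102 and 6663 after 0.5 h and 27456, 32631 and 24085 after 4 h. On the steady-state arrays they were 7918, 4588 and 5082 in the dark, 8142, 6329 and 4084 after 0.5 h and 20166, 20212 and 20157 after 4 h. Replicate 1 gave the highest signal of its group in the dark and at 0.5 h in both kinds of RNA, but not in polysome RNA at 4 h, where replicate 2 was highest. The 3 steady-state arrays at 4 h lay close together, at 20179 ± 29.4, against 5863 ± 1797 in the dark (SD, n = 3). At 4 h against dark PSAE-1 was 3.17-fold (95% confidence interval 2.01 to 5.01) higher in polysome RNA (adjusted p = 0.000308) and 3.54-fold (95% confidence interval 2.25 to 5.59) higher in steady-state RNA (adjusted p = 0.00012), the widest intervals among the 7 genes. The brightest signals on the 3 steady-state arrays at 4 h were 32680, 35840 and 34145, and the brightest on any array of the series was 52822. The data hold no mark of saturated probes, and saturation was not tested. A second gene, PSAE-2, encodes the same subunit; whether its transcript binds this probe set was not tested.

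PSAN encodes PsaN, a subunit on the lumenal side of photosystem I with a part in its reaction with plastocyanin. The polysome signals of PSAN were 3792, 2912 and 2451 in the dark, 4423, 2949 and 2487 after 0.5 h and 16418, 13025 and 10329.7 after 4 h. Its steady-state signals were 3856, 3627 and 2945 in the dark, 4219.9, 3604 and 4698 after 0.5 h and 13681, 12573 and 10995 after 4 h. The 4 h arrays did not overlap the dark and 0.5 h arrays, with the lowest 4 h signal at 10329.7 and the highest earlier one at 4698. PSAN was 4.34-fold (95% confidence interval 3.19 to 5.91) higher at 4 h than in the dark in polysome RNA (adjusted p = 1.58e-07) and 3.58-fold (95% confidence interval 2.63 to 4.88) higher in steady-state RNA (adjusted p = 1.03e-06).

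Among the photosystem II genes, PSB27 encodes a lumenal protein that binds photosystem II during assembly and repair and is not part of the finished complex. PSB27 signals were 5518, 5368 and 4551 in the dark, 7072, 6655 and 5978 after 0.5 h and 22787, 17876 and 16867 after 4 h in polysome RNA. In steady-state RNA they were 4972, 6388 and 6618 in the dark, 5424, 7961 and 6318 after 0.5 h and 12436, 16386 and 11792 after 4 h. Every 4 h polysome signal lay above every 4 h steady-state signal, while in the dark the groups overlapped. At 4 h against dark the rise was 3.71-fold (95% confidence interval 2.88 to 4.77) in polysome RNA (adjusted p = 4.77e-08) and 2.25-fold (95% confidence interval 1.75 to 2.9) in steady-state RNA (adjusted p = 2.33e-05).

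PSBW encodes a small membrane subunit of photosystem II known to stabilise its supercomplexes with antenna proteins. Polysome signals of PSBW were 5197, 4728 and 6055 in the dark, 5735, 6280.5 and 5356 after 0.5 h and 15369.6, 16334 and 13086 after 4 h. Steady-state signals of PSBW were 4473, 4376 and 4337 in the dark, 4507, 3894 and 5338 after 0.5 h and 11107, 9608 and 13350.4 after 4 h. The dark steady-state arrays were nearly equal, at 4395 ± 69.8 (SD, n = 3), and the 4 h signals lay above all of the others in each kind of RNA. PSBW was 2.81-fold (95% confidence interval 2.25 to 3.51) higher at 4 h in polysome RNA (adjusted p = 2.24e-07) and 2.56-fold (95% confidence interval 2.05 to 3.2) higher in steady-state RNA (adjusted p = 7.89e-07). PSBY encodes a precursor that is processed into a pair of small photosystem II polypeptides. Its polysome signals were 5985, 4608 and 5240.2 in the dark, 6453, 5706 and 4619 after 0.5 h and 21783, 18429 and 19404 after 4 h. Its signals in steady-state RNA were 4529.7, 4692 and 3636 in the dark, 3749, 4424 and 3814 after 0.5 h and 15857, 15216 and 15506 after 4 h. No dark or 0.5 h array came near the 4 h arrays, of which the lowest was 15216, against a highest earlier signal of 6453. The rises of PSBY at 4 h were 3.78-fold (95% confidence interval 3.04 to 4.7) in polysome RNA (adjusted p = 5.32e-09) and 3.64-fold (95% confidence interval 2.93 to 4.53) in steady-state RNA (adjusted p = 7.56e-09).

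AT2G26500 encodes PetM, a small membrane subunit of the cytochrome b6f complex. Polysome signals of AT2G26500 were 4346, 3901 and 4078 in the dark, 6987, 6342 and 5592 after 0.5 h and 25773, 24582 and 22296 after 4 h. Its steady-state signals were 9785, 9624 and 11035 in the dark, 10423, 11320 and 12258 after 0.5 h and 19930, 17220.1 and 18568 after 4 h. In polysome RNA the 3 groups did not overlap one another, whereas in steady-state RNA the dark and 0.5 h arrays overlapped and the 4 h arrays lay above both. At 4 h against dark AT2G26500 was 5.89-fold (95% confidence interval 4.89 to 7.09) higher in polysome RNA (adjusted p = 1.5e-11) and 1.83-fold (95% confidence interval 1.52 to 2.2) higher in steady-state RNA (adjusted p = 2.01e-05). By group mean the order was 4 h polysome, 4 h steady-state, 0.5 h steady-state, dark steady-state, 0.5 h polysome and dark polysome. In this order, the 4 h polysome and steady-state arrays did not overlap, nor did the dark steady-state and 0.5 h polysome arrays. Of the neighbours, the 4 h polysome and steady-state groups did not pass the test against each other (limma, adjusted p = 0.0537). These groups passed with the replicate number as a block (0.021) and with the stricter filter (0.0379). In steady-state RNA 0.5 h against dark did not pass (adjusted p = 0.898).

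ATPC1 encodes the main gamma subunit of the chloroplast ATP synthase, the rotating shaft that is switched by thiol redox state. ATPC1 signals on the polysome arrays were 7051, 6610.1 and 6323 in the dark, 6337, 6825 and 6142 after 0.5 h and 11716, 10298 and 8057 after 4 h. On the steady-state arrays they were 7433, 5480.1 and 5881 in the dark, 7099, 4284 and 4395 after 0.5 h and 13231, 12965 and 14298 after 4 h. All 3 polysome signals at 4 h were below the 3 steady-state signals at 4 h, and the spread was wide in steady-state RNA at 0.5 h, where replicate 1 was highest. ATPC1 was 1.49-fold (95% confidence interval 1.15 to 1.93) higher at 4 h than in the dark in polysome RNA (adjusted p = 0.0173) and 2.17-fold (95% confidence interval 1.67 to 2.82) higher in steady-state RNA (adjusted p = 5.76e-05). The call in polysome RNA ended under quantile normalization (log2 change 0.42, adjusted p = 0.0929), without dark polysome replicate 3 (adjusted p = 0.0579) and without 4 h polysome replicate 1 (0.0903) or 2 (0.0536). The 1.54-fold rise at 4 h against 0.5 h in polysome RNA (adjusted p = 0.0112) was likewise not called under quantile normalization (0.062) or without 4 h polysome replicate 1 (0.0633).

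**Figure D2:**
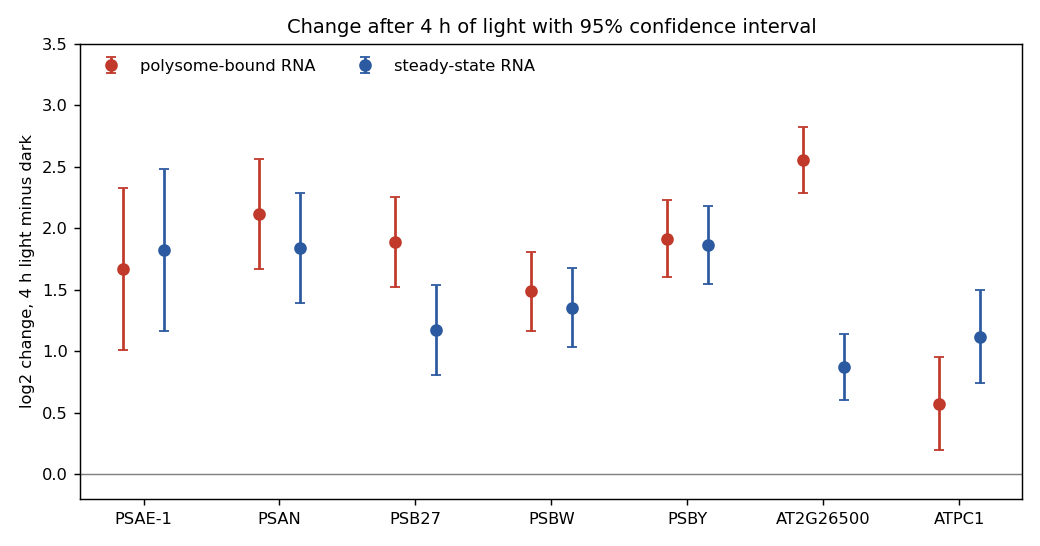
Log2 change at 4 h of light against dark (vertical axis) for each gene, in polysome-bound RNA (red, left) and steady-state RNA (blue, right); points are estimates from 3 arrays a group and bars are 95% confidence intervals. The intervals of the 2 kinds of RNA lie apart for AT2G26500 (polysome 2.56, steady-state 0.87) and overlap for the other 6 genes, for PSB27 only at their ends (polysome 1.89, steady-state 1.17).

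After 0.5 h of light AT2G26500 was the 1 gene of the 7 that passed the test against dark, and only in polysome RNA. Its polysome signals averaged 6307 ± 698 at 0.5 h and 4109 ± 224 in the dark, a 1.53-fold (95% confidence interval 1.27 to 1.84) rise (limma, adjusted p = 0.0138). Its steady-state signals averaged 11334 ± 918 at 0.5 h and 10148 ± 772 in the dark (SD, n = 3 arrays), a log2 change of 0.16 ± 0.128 (SE). At this time 0.628% of all probe sets were called higher in polysome RNA, and 1.43% were called in either direction in steady-state RNA. The polysome call ended with no filter (adjusted p = 0.104), with a common array median (0.124) and in a fit of the 6 compared arrays (0.0663). It also ended without dark polysome replicate 2 (0.0867) or 3 (0.0639) and without 0.5 h polysome replicate 1 (0.106) or 2 (0.0675), while the log2 change stayed between 0.54 and 0.70. The other 6 genes had log2 changes between -0.05 and 0.35 in polysome RNA. The largest was that of PSB27 (0.35 ± 0.175, adjusted p = 0.924), which was not called. Its 3 light arrays all lay above the 3 dark arrays, a separation whose share over all probe sets was not counted. In steady-state RNA 0 of 7 genes were called by limma, and 0 of 7 had an unadjusted p under 0.05, against 7.74% of all probe sets. Changes there lay between -0.28 for ATPC1 and 0.26 for PSAN, and the 95% intervals of all 7 fell within -0.66 and 0.72.

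The polysome-to-steady-state ratio asks how far a transcript is represented on ribosomes relative to the pool, on the relative scale of these arrays. In the dark AT2G26500 was the 1 gene of the 7 whose ratio passed the test without the block, at 0.405 (0.337 to 0.488) (ratio with 95% confidence interval, adjusted p = 1.23e-05). Its ratio by replicate number was 0.444, 0.405 and 0.37 in the dark, 0.67, 0.56 and 0.456 at 0.5 h and 1.29, 1.43 and 1.2 at 4 h. The ratios at 4 h lay above all others, while those in the dark and at 0.5 h came as close as 0.444 and 0.456. How many probe sets show such a separation of ratios was not counted. At 0.5 h the ratio of AT2G26500 was 0.555 (0.461 to 0.669) and again below 1 (adjusted p = 0.00048), and at 4 h it was 1.3 (1.08 to 1.57), not called without the block (adjusted p = 0.0537). The share of all probe sets called lower in polysome RNA was 4.55% in the dark and 4.28% at 0.5 h. A call of 1 gene in 7 describes AT2G26500 and not the 7 genes together. The share called in either direction at 4 h was 13.4%. In the main analysis, without the block, limma called none of the 7 genes at 4 h. An unadjusted p under 0.05 was found for 5 of 7, as for 26.2% of all probe sets. The stricter filter gave calls for PSB27 (adjusted p = 0.0476) and AT2G26500 (0.0379), and the compared arrays alone for PSAE-1 (0.044). PSB27 was also called without 4 h steady-state replicate 2 (0.0372). With the block, 4 of 7 were called, against 23.1% of all probe sets.

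PSAE-1 had ratios of 1.54 (0.976 to 2.43) in the dark, 1.57 (0.993 to 2.47) at 0.5 h and 1.38 (0.874 to 2.18) at 4 h, above 1 for each of the 9 replicate pairs. PSAN had 0.869 (0.639 to 1.18), 0.769 (0.564 to 1.05) and 1.05 (0.773 to 1.43) in the same order. For PSB27 the ratio was 0.862 (0.67 to 1.11) in the dark, 1.01 (0.785 to 1.3) at 0.5 h and 1.42 (1.1 to 1.83) at 4 h, where its pairs gave 1.83, 1.09 and 1.43. For PSBW the ratio was 1.21 (0.965 to 1.51) in the dark, 1.27 (1.02 to 1.59) at 0.5 h and 1.32 (1.06 to 1.65) at 4 h, where its pairs gave 1.38, 1.7 and 0.98. PSBY had 1.23 (0.991 to 1.53), 1.39 (1.12 to 1.73) and 1.28 (1.03 to 1.59) in the same order. In the main analysis, without the block, neither gene was called in any light condition. PSBY at 0.5 h was called by limma under quantile normalization (adjusted p = 0.029) and with the stricter filter (0.0418). It was also called without 0.5 h polysome replicate 3 (0.0315). ATPC1 had 1.07 (0.825 to 1.39) in the dark, 1.26 (0.968 to 1.63) at 0.5 h and 0.735 (0.565 to 0.954) at 4 h, the 1 estimate below 1 among the 7 genes at 4 h. With the replicate number as a block, PSAE-1 was called higher on polysomes in the dark (adjusted p = 0.0443) and at 0.5 h (0.035), and PSBY at 0.5 h (0.0134). The block also gave calls at 4 h, with PSB27 (0.0198), PSBW (0.0429) and AT2G26500 (0.021) higher and ATPC1 lower (0.0309). With the block, 23.1% of all probe sets were called at 4 h, 18.5% at 0.5 h and 17.2% in the dark.

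**Figure D3:**
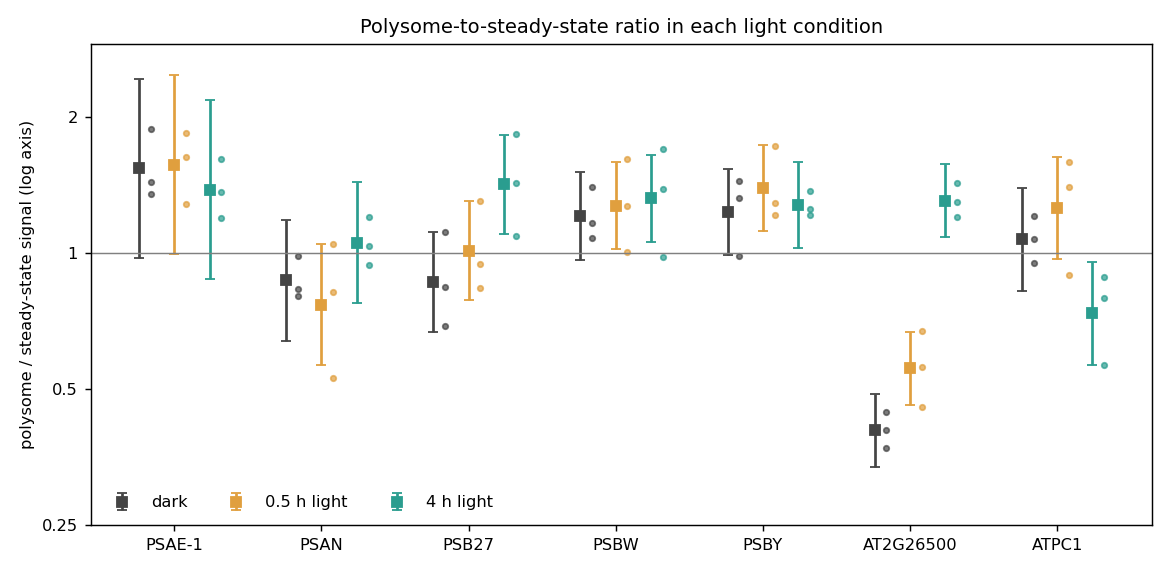
Polysome-bound signal divided by steady-state signal (vertical log axis) for each gene in the dark, at 0.5 h and at 4 h of light; squares are estimates from 3 arrays of each kind with 95% confidence intervals, and small points are the ratios of arrays with the same replicate number. AT2G26500 lies at 0.405 in the dark, 0.555 at 0.5 h and 1.3 at 4 h, while the estimates of the other 6 genes stay between 0.735 and 1.57.

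Whether light changed the ratio itself was tested as a difference between the light responses of the 2 kinds of RNA. At 4 h against dark the ratio of AT2G26500 was 3.22-fold (95% confidence interval 2.47 to 4.18) higher, with a change of 1.69 ± 0.181 on the log2 scale (SE, adjusted p = 0.00021). It was the 1 member called among 7, where 0.333% of all probe sets were called higher and 0.0314% lower, and it ranked 65 from the top of 15922. The call of AT2G26500 held in all 20 alternatives tried, with log2 changes of 1.55 to 1.81 and adjusted p up to 0.00318. At 4 h against 0.5 h its ratio was 2.35-fold (95% confidence interval 1.81 to 3.05) higher (adjusted p = 0.0156), 1 of 3 probe sets called in the whole table (0.0188%). That call ended in 11 of 20 alternatives, with adjusted p up to 0.143 and log2 changes of 1.13 to 1.33. It ended without 0.5 h steady-state replicate 2 (0.0921) or 3 (0.0502) and 0.5 h polysome replicate 3 (0.09). It also ended without 4 h steady-state replicate 2 (0.0803) or 3 (0.0521) and 4 h polysome replicate 1 (0.0641) or 2 (0.0589). The other 4 such settings were no filter, a common median, no intensity trend and the compared arrays alone. At 0.5 h against dark the ratio of AT2G26500 was 1.37 times as high (95% confidence interval 1.05 to 1.78), not called (adjusted p = 1). Limma called 0 of all probe sets in that comparison, and 257 (1.61%) had an unadjusted p under 0.05. With the block 569 had such a p, and AT2G26500 was again not called. A change that is not called here is not shown to be absent.

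PSB27 had the next largest gain in ratio at 4 h against dark, 1.65-fold (95% confidence interval 1.15 to 2.35), which did not pass over the whole table (adjusted p = 0.339, and 0.103 with the block). ATPC1 had the largest estimate in the other direction, 0.686 times the dark ratio (0.473 to 0.993, adjusted p = 0.612). Against 0.5 h the ratio of ATPC1 at 4 h was 0.584 times as high (adjusted p = 0.394), a value that passed only without 0.5 h steady-state replicate 1 (log2 change -1.01, adjusted p = 0.0271). PSAE-1, PSAN, PSBW and PSBY had log2 changes of the ratio at 4 h against dark of -0.16 ± 0.446, 0.28 ± 0.301, 0.13 ± 0.218 and 0.052 ± 0.213 (SE). Their 95% intervals were -1.09 to 0.77 for PSAE-1, -0.35 to 0.91 for PSAN, -0.32 to 0.59 for PSBW and -0.39 to 0.50 for PSBY.

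**Figure D4:**
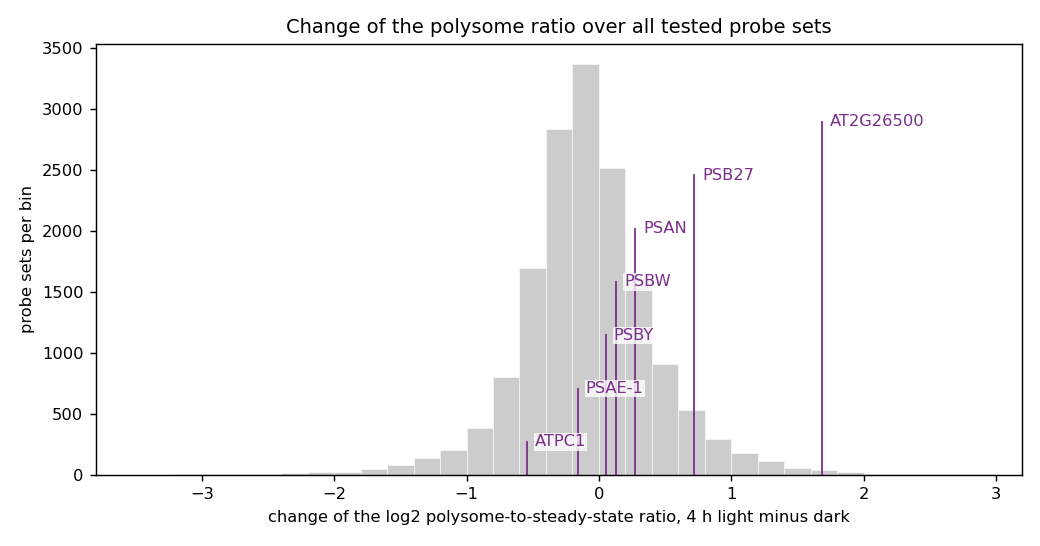
Number of probe sets (vertical axis) by change of the log2 polysome-to-steady-state ratio at 4 h of light against dark (horizontal axis), for all 15922 tested probe sets in grey, with the 7 genes as vertical lines whose heights only separate the names. AT2G26500 at 1.69 ranks 65 from the top and PSB27 at 0.72 ranks 902, and the lowest of the 7 is ATPC1 at -0.54.

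Among themselves the 7 genes had pairwise Pearson correlations of log2 signal over the 18 arrays between 0.574 (ATPC1 with AT2G26500) and 0.966 (PSBW with PSBY), with a median of 0.852 over 21 pairs. All points share the step at 4 h. With each group's mean taken out, the correlations lay between -0.418 and 0.619, with a median of 0.273. The 5 genes whose pattern over the 18 arrays was most like the mean pattern of the 7, among 8781 other probe sets with 1 gene, were AT1G74730, AT2G42220, AT1G21500, AT5G38980 and AT1G15260, with Pearson r of 0.982 to 0.991. These 5 rose at 4 h by 2.14 to 4.25 on the log2 scale in polysome RNA and by 1.79 to 3.80 in steady-state RNA.

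Of 37 listed nuclear genes for proteins of these complexes and their electron carriers, the array annotation gave 8 a probe set of their own. Listed genes without one were not read, and whether other probe sets on the array detect them was not tested. These were 2 of 12 for photosystem I, 3 of 13 for photosystem II, 1 of 8 for electron transport and 2 of 4 for the ATP synthase. They are the 7 described and ATPC2, a minor gene for the ATP synthase gamma subunit. ATPC2 averaged 262 ± 67.5 at 4 h and 351 ± 51.8 in the dark in polysome RNA, and 228 ± 40.3 at 4 h and 361 ± 77.1 in the dark in steady-state RNA (SD, n = 3). Its log2 change was -0.44 ± 0.334 (adjusted p = 0.338) in polysome RNA and -0.66 ± 0.334 (adjusted p = 0.145) in steady-state RNA, where the block gave a call (adjusted p = 0.0242). Of 17 listed factors for assembly and repair of the complexes, 6 had a probe set of their own. In each kind of RNA 3 of 6 were higher at 4 h than in the dark and 0 lower, with a median log2 change of 0.51 in polysome RNA and 0.64 in steady-state RNA. The shares of all probe sets called higher were 15.6% in polysome RNA and 16.9% in steady-state RNA. On the log2 scale LPA2, a photosystem II assembly factor, rose by 1.14 ± 0.248 (adjusted p = 0.0011) on polysomes and 1.18 ± 0.248 (adjusted p = 0.000848) in the pool. HCF101, an iron-sulfur scaffold for photosystem I, rose by 0.56 ± 0.175 (adjusted p = 0.0168) on polysomes and 0.77 ± 0.175 (adjusted p = 0.00171) in the pool, with no polysome call without dark polysome replicate 2 (0.0518) or 4 h polysome replicate 3 (0.0564). LPA19, a relative of PSB27, rose by 1.53 ± 0.247 (adjusted p = 5.93e-05) on polysomes and was at 0.32 ± 0.247 (adjusted p = 0.362) in the pool, and the difference between these did not pass (adjusted p = 0.176). LPA1 was at 0.34 ± 0.217 (adjusted p = 0.24) in polysome RNA and rose by 0.72 ± 0.217 (adjusted p = 0.0132) in steady-state RNA, a call lost without dark steady-state replicate 1 (0.0527) or 4 h steady-state replicate 3 (0.0506). The remaining factors with a probe set of their own, PAM68 and CCDA, were not called. Without the block, the ratio change at 4 h against dark was called for 0 of the 6 factors, LPA1 included. Over all probe sets that test called 0.333% higher and 0.0314% lower.

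The 32 plastid genes listed for the same complexes were all measured. At 4 h against dark 2 of 32 were higher and 1 lower in polysome RNA, with a median log2 change of 0.19, and in steady-state RNA 4 rose and 0 fell, with a median of 0.089. Shares over all probe sets were 35.7% and 34% called in either direction. On the log2 scale psbC, for a core antenna protein of photosystem II, rose by 1.27 ± 0.248 (adjusted p = 0.000431) on polysomes and by 1.30 ± 0.248 (adjusted p = 0.000347) in the pool. psbD, for the D2 reaction centre protein, was at 0.62 ± 0.294 (adjusted p = 0.113) on polysomes and rose by 1.42 ± 0.294 (adjusted p = 0.000754) in the pool. psbZ, for a small photosystem II subunit, rose by 0.82 ± 0.29 (adjusted p = 0.0326) on polysomes and 0.91 ± 0.29 (adjusted p = 0.0188) in the pool. psbH, for another small subunit, was at 0.47 ± 0.195 (adjusted p = 0.0669) on polysomes and rose by 0.65 ± 0.195 (adjusted p = 0.0126) in the pool. psaA, for a reaction centre protein of photosystem I, fell on polysomes by 1.50 ± 0.273 (adjusted p = 0.000211) on the log2 scale. In the pool psaA was at -0.048 ± 0.273 (adjusted p = 0.92). Tested as the ratio change at 4 h against dark without the block, the 2 kinds of RNA differed by a call for 0 of the 32 plastid genes. Over all probe sets that test called 0.333% higher and 0.0314% lower. The call of psbZ on polysomes ended in 7 of 14 alternatives, with the highest adjusted p under quantile normalization (log2 change 0.55, adjusted p = 0.15). The others were no filter, no intensity trend and the loss of dark polysome replicate 1 or 3 or 4 h polysome replicate 2 or 3 (adjusted p up to 0.125 without 1 array). In steady-state RNA it ended without dark replicate 1 (0.141) or 4 h replicate 3 (0.086), and that of psbH without dark replicate 1 (0.0825). On polysomes psbD was called with the block (0.0108) and without dark replicate 2 (0.044) or 4 h replicate 1 (0.0402). psbH was called there with the block (0.0109), with a common median (0.0483) and without dark replicate 3 (0.0451) or 4 h replicate 1 (0.0499). The difference between the nuclear and the plastid genes was not tested, since genes are not replicates. Whether the labelling captured plastid and nuclear transcripts alike was not tested either.

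**Figure D5:**
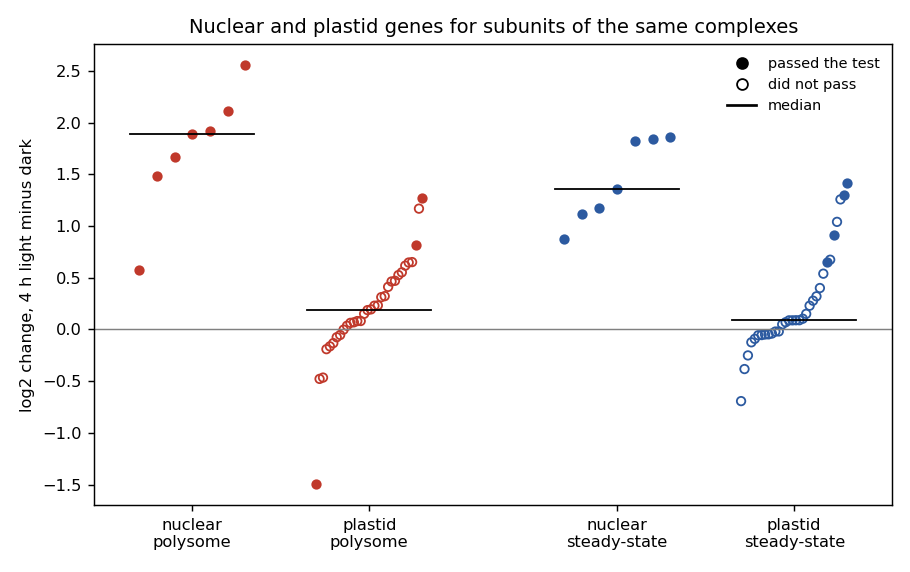
Log2 change at 4 h of light against dark (vertical axis) for the 7 nuclear genes and the 32 plastid genes, in polysome-bound RNA (red) and steady-state RNA (blue); each point is a gene, filled where it passed the test, and black lines are medians. In polysome RNA the median is 1.89 for the nuclear and 0.19 for the plastid genes, and in steady-state RNA 1.36 for the nuclear and 0.089 for the plastid genes. Whether both kinds of transcript were labelled alike was not tested.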

How the data were processed

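Steady-state and polysome-bound RNA of 18 seedling samples was hybridised to Affymetrix arrays as biotin-labelled cRNA, per the labels' protocols. Per the submitters' processing notes, the authors used MAS5, which gave the deposited signal intensity on a linear scale. Its version was not given in the sources used here, nor its settings. The 2% trimmed mean of each array lay between 500.04 and 500.05, so the authors' deposited intensity values are scaled to 1 level. No pair of the 153 had over 0.285% equal signals.

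From the 22810 probe sets, 64 controls were removed, and log2 was taken after setting the 915 values below 1 to 1. Probe sets at or above the 30th percentile of mean log2 signal, 15922 in number, were tested with limma 3.58.1 in R 4.3.3. Each group had its own mean in 1 fit of the 18 arrays, with variances moderated along a trend in intensity and Benjamini-Hochberg adjustment over all tested probe sets (threshold 0.05). The array annotation gave the genes of each probe set, with symbols brought up to date from RefSeq's gene table of TAIR10.1. The code was tested on simulated data.

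The members and lists were chosen with earlier results of these data known. All members are named; of the lists, called genes at 4 h are named, up to 6 each, and ATPC2 was named after its values were seen. Replicate numbers pair the samples: over 27 comparisons of arrays with equal numbers, deviations from group means correlated at 0.108 to 0.426, and at most at 0.0359 for different numbers. The pairing comes from the labels' numbers and the data, so p-values with the number as a block are given where they change a call. Alternatives were quantile normalization, a common median, no filter, a stricter filter that left the upper 50% (11373 probe sets), an offset of 32 on every signal, no intensity trend, the compared arrays alone, the block, and each compared array left out in turn.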

Additional observations from a re-analysis of the deposited data

Results flagged for a closer look

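The response of AT2G26500 to light differed between polysome-bound and steady-state RNA by the test of the difference itself. The log2 change of its polysome-to-steady-state ratio was 1.69 at 4 h against dark (limma, adjusted p = 0.00021), with each of the 3 ratios at 4 h above each of the 3 in the dark. It was 1.23 at 4 h against 0.5 h (adjusted p = 0.0156), again with all 3 ratios at 4 h above all 3 at 0.5 h. The share of all probe sets with such a separation of ratios was not counted. The call against dark held in all 20 alternatives, and that against 0.5 h ended in 11 of 20 (adjusted p up to 0.143).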

How the results depend on the processing

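No direction of a called change of the 7 genes turned in any alternative, and the counts of members called at 4 h against dark or 0.5 h in each kind of RNA stayed within 1.5 times of 7. With the replicate number as a block, members called as polysome against steady-state were 2 in the dark, 3 at 0.5 h and 4 at 4 h, against 1, 1 and 0 without it, and the block changed no other call of a member. The common median, no filter and the compared arrays alone gave 0 calls for 0.5 h against dark in polysome RNA. These 3 and no intensity trend gave 0 for the ratio change at 4 h against 0.5 h. Quantile normalization and the stricter filter gave 2 calls for the ratio at 0.5 h, and at 4 h the stricter filter gave 2 and the compared arrays alone 1. Leaving out single arrays gave 0 to 1 members called for 0.5 h against dark in polysome RNA, 1 to 2 for the ratio at 0.5 h, 0 to 1 for the ratio at 4 h, and 0 to 2 for the ratio change at 4 h against 0.5 h. Of 1302 member values in alternatives, 24 lost and 16 gained a call and 40 turned sign, and all values that turned sign were of changes not called. Under quantile normalization these were PSAN in the 4 h ratio (-0.015), PSBW (-0.029) and PSBY (-0.052) in the ratio change at 4 h against dark, and PSBW in that against 0.5 h (-0.082). With single arrays left out, log2 changes at 0.5 h in steady-state RNA were -0.16 to 0.33 for PSAE-1, -0.023 to 0.25 for PSB27 and -0.069 to 0.16 for PSBW, and in polysome RNA -0.26 to 0.47 for PSAE-1, -0.15 to 0.27 for PSAN and -0.032 to 0.21 for PSBY. For the ratio they were -0.11 to 0.16 for PSB27 at 0.5 h and -0.092 to 0.24 for PSAN at 4 h. For the ratio change at 0.5 h against dark they were -0.32 to 0.41 for PSAE-1, -0.41 to 0.0014 for PSAN and -0.033 to 0.19 for PSBW, at 4 h against dark -0.40 to 0.23 for PSAE-1 and -0.042 to 0.17 for PSBY, and at 4 h against 0.5 h -0.43 to 0.16 for PSAE-1 and -0.062 to 0.18 for PSBW. psaA in steady-state RNA at 4 h was at -0.24 to 0.17. The cause of these moves was not tested.

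Over all probe sets, the block gave 409 calls at 0.5 h in steady-state RNA (227 without it), 357 in polysome RNA (208), 2738, 2944 and 3677 for the ratio in the dark, at 0.5 h and at 4 h (1313, 1325 and 2133), and 300 and 131 for its change at 4 h against dark and 0.5 h (58 and 3). The compared arrays alone gave 88 at 0.5 h in steady-state RNA, 384 for the ratio at 0.5 h and 0 for its change at 4 h against 0.5 h, for which no intensity trend gave 0 and the common median 1. No intensity trend gave 13 for the change at 4 h against dark, and the common median 875 for the ratio at 0.5 h. Single arrays left out gave 147 to 389 at 0.5 h in steady-state RNA, 622 to 1299, 570 to 2123 and 1257 to 1743 for the ratio in the dark, at 0.5 h and at 4 h, and 12 to 73 and 0 to 211 for its change at 4 h against dark and 0.5 h. The common median moved the median of all probe sets to -0.12 at 4 h in steady-state RNA, and gave 1034 higher and 655 lower calls for the ratio at 4 h, against 884 and 1249 as deposited. With 3 arrays a group and 1 probe set a gene, small changes of the ratio cannot be seen. The cause of these differences was not tested.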
